A study of Mus musculus with 18 samples.

Results

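The 10 genes described here belong to the LIN28 and let-7 axis and to the oncofetal RNA-binding proteins around it: Lin28a, Lin28b, Hmga1, Hmga2, Igf2bp1, Igf2bp2, Igf2bp3, Trim71, Dicer1 and Zcchc11 (also named Tut4). They were listed by name for their place in this pathway. All 10 were found among the 53801 genes of the count table, and all 10 were among the 18469 genes that passed a filter on low counts and were tested.

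The study asked how membrane tension bears on the exit of mouse embryonic stem cells (ESCs) from naive pluripotency, and measured RNA in a line whose plasma membrane is held to the actin cortex by an active form of ezrin. WT cells were the parental E14 line, given in the study's methods as E14TG2a. iEZR_CA cells were E14 cells that carried, on a PiggyBac vector, a doxycycline-inducible, constitutively active ezrin followed by IRES mCherry. Both lines were grown in parallel on gelatin. They were harvested as naive ESCs in 2i+LIF (0 h) and at 24 h and 48 h after the switch to N2B27 (named T24 and T48), with 3 libraries in each of the 6 groups and 18 in all.

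Doxycycline was added to the iEZR_CA line only, about 16 h ahead of the switch, as far as the labels say, so effects of the drug and of the transgene cannot be told apart in any comparison of the lines. Whether the iEZR_CA line was a single clone is not given in the sources used here. Reads counted on genes ran from 10940752 to 33276622 per library, with a median of 23096248. The transcript of the altered gene, Ezr, had a mean normalized count of 11763 in WT and 24819 in iEZR_CA ESCs, 7711 and 20793 at T24, and 10096 and 16215 at T48. The 6 naive markers read here (Pou5f1, Sox2, Nanog, Esrrb, Zfp42 and Klf4) were present in every group, with a summed normalized count of 98320 to 99615 in WT and 85140 to 87054 in iEZR_CA ESCs, 48072 to 48855 and 61633 to 62718 at T24, and 16847 to 17893 and 23528 to 24905 at T48. A normalized count is the read count divided by a size factor of its library, and a p-value measures the spread between these libraries, which the study calls biological replicates. In bulk RNA, fewer cells with a transcript and less of it per cell cannot be told apart.

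LIN28A and LIN28B are RNA-binding proteins that bind the precursors of the let-7 microRNAs and block their maturation. With LIN28 bound, the terminal uridylyltransferases TUT4 (Zcchc11) and TUT7 add a tail of uridines to the precursor, the exonuclease DIS3L2 degrades it, and DICER1 no longer cuts it into mature let-7. Mature let-7 in turn represses Lin28a, Lin28b, Hmga2, Trim71, the Igf2bp genes and other growth genes through sites in their 3′ UTRs, so that low let-7 and high LIN28 go together in early embryonic cells and in many tumours.

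The mature let-7 sequences are shown because all of them read their targets with the same seed. In the RefSeq annotation of GRCm38.p6, 11 entries of the family gave 9 distinct 5p sequences of 22 bases, and bases 2 to 8, in capitals, were the same in all 9.
let-7a-5p (chr13:48538239-48538260, minus strand): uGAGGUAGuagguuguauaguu
let-7b-5p (chr15:85707325-85707346, plus strand): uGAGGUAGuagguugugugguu
let-7c-5p (chr16:77599672-77599693, plus strand, and a second locus on chr15): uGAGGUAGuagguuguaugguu
let-7d-5p (chr13:48536078-48536099, minus strand): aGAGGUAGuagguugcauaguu
let-7e-5p (chr17:17830366-17830387, plus strand): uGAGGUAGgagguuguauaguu
let-7f-5p (chr13:48537889-48537910, minus strand, and a second locus on chrX): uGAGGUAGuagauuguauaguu
let-7g-5p (chr9:106178846-106178867, plus strand): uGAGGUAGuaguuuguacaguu
let-7i-5p (chr10:122985698-122985719, minus strand): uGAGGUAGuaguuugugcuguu
miR-98-5p (chrX:151913229-151913250, plus strand): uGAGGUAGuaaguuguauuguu
LIN28 is known to read the letters GGAG in the loop of a let-7 precursor, and 8 of the 11 hairpins with both arms annotated held GGAG between the arms.

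The seed pairs with CTACCTC in a transcript. These letters were searched on the transcript strand of the longest 3′ UTR of each gene in GENCODE M21 (GRCm38), and a match followed by A was counted as the 8-base form of the same match. Of the 10 genes, 8 held at least 1 match and together they held 21, compared with 9.02% of all 21037 genes with a 3′ UTR. Lin28b, Hmga2, Igf2bp1 and Trim71 held 4 each, Lin28a held 2, and Hmga1, Igf2bp2 and Igf2bp3 held 1 each. Only 12 genes in the whole annotation, or 0.057%, held 4 or more. No match was found in the 3851 bases of the Dicer1 3′ UTR or the 636 bases of the Zcchc11 3′ UTR. A site from each of the 8 genes is shown, with the match in capitals and the 14 bases before it in lower case.
Lin28a, chr4:134005189-134005210, minus strand: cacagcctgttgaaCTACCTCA
Lin28b, chr10:45381022-45381043, minus strand: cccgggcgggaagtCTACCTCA
Hmga1, chr17:27563278-27563299, plus strand: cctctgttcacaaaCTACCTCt
Hmga2, chr10:120364224-120364245, minus strand: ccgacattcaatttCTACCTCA
Igf2bp1, chr11:95961778-95961799, minus strand: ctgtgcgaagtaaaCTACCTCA
Igf2bp2, chr16:22059473-22059494, minus strand: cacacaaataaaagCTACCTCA
Igf2bp3, chr6:49086787-49086808, minus strand: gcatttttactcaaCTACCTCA
Trim71, chr9:114512472-114512493, minus strand: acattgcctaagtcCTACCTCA
Long 3′ UTRs hold a match more often, and among genes with a 3′ UTR within 20% of the length, a match was found in 14.4% for Lin28a, 24.2% for Lin28b, 15.5% for Hmga2, 33.7% for Igf2bp1 and 29.5% for Trim71. The reference is that of C57BL/6J mice and not of E14 cells. The genes were listed as members of the let-7 axis, so the matches describe them and are not a result of these libraries.

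**Figure D1:**
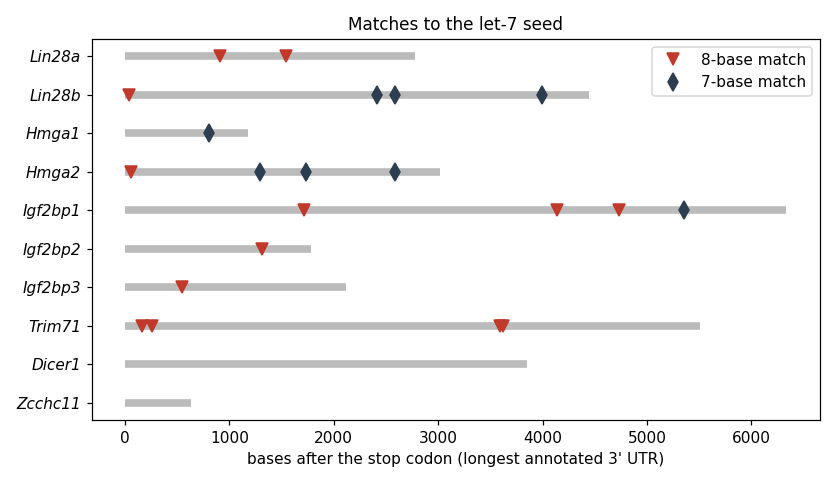
Matches to the let-7 seed along the longest annotated 3′ UTR of each of the 10 genes, in bases after the stop codon (horizontal axis); grey bars are the 3′ UTRs, red triangles 8-base and blue diamonds 7-base matches. All 4 matches in Trim71 and both in Lin28a were of the 8-base form, and Dicer1 and Zcchc11 held none.

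Most of the 10 genes were lower in iEZR_CA than in WT cells before exit and rose with time in both lines. In ESCs, 8 of the 10 were lower and 1, Hmga2, was higher, while 28.1% of all genes tested were lower and 26.4% higher (edgeR's quasi-likelihood test, Benjamini-Hochberg adjusted p under 0.05). The median log2 fold change of the 10 in ESCs was -0.39, compared with -0.01 over all genes tested. At T24, 7 were lower and 1 higher, with 30.1% of all genes lower and 30.8% higher, and a median of -0.43. At T48, 6 were lower and 1, Dicer1, was higher, with 30.1% of all genes lower and 31.0% higher, and a median of -0.25. Calls were thus common among all genes in either direction, and the sizes below say more than the calls. Of all calls at T24, 50.6% were higher in iEZR_CA cells, and 61.1% with library sizes from spike-in sequences. With library sizes taken from the ERCC spike-in sequences in place of the main scaling, the counts were 4 lower and 1 higher in ESCs, 5 and 1 at T24, and 4 and 1 at T48. Of all 18469 genes tested, this scaling called 2432 lower and 3074 higher in ESCs, 2774 and 4355 at T24, and 3200 and 4029 at T48.

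Lin28a (ENSMUSG00000050966, chr4:134003330-134018841, minus strand) showed the widest range of the 10. Its normalized counts were 1549, 1614 and 1608 in the 3 WT ESC libraries and 239, 258 and 279 in the iEZR_CA ESC libraries. At T24 they were 11763, 12211 and 12508 in WT and 2647, 2477 and 2697 in iEZR_CA. At T48 they were 22703, 24081 and 24195 in WT and 14223, 14359 and 13944 in iEZR_CA. No 2 groups overlapped, and the means rose in the order iEZR_CA ESC, WT ESC, iEZR_CA T24, WT T24, iEZR_CA T48 and WT T48, a range of 91.5-fold. iEZR_CA cells thus stood below WT cells of their own stage and above WT cells of the stage before.

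The difference between the lines in Lin28a narrowed as the cells exited. It was 6.22-fold lower in iEZR_CA ESCs (log2 fold change -2.64, SE 0.047, adjusted p = 1.81e-50), 4.67-fold lower at T24 (-2.22, SE 0.031, adjusted p = 3.74e-57) and 1.66-fold lower at T48 (-0.73, SE 0.028, adjusted p = 2.91e-33). From ESC to T24 it rose 7.57-fold in WT and 10.1-fold in iEZR_CA cells. From T24 to T48 it rose 1.94-fold in WT and 5.46-fold in iEZR_CA cells. Each of these calls remained under every alternative that was run.

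Lin28b (ENSMUSG00000063804, chr10:45376620-45486395, minus strand), the paralog of Lin28a, was a low transcript that rose late. Its normalized counts were 98.9, 91.8 and 93.7 in WT ESCs and 70.9, 63.6 and 72.8 in iEZR_CA ESCs. They were 326, 320 and 331 in WT at T24 and 112, 117 and 95.7 in iEZR_CA at T24. They were 2178, 2076 and 2202 in WT at T48 and 611, 600 and 603 in iEZR_CA at T48. Only WT ESC and iEZR_CA T24 overlapped among neighbours in the order of the means, which was the same order as for Lin28a.

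In Lin28b the difference between the lines widened where that in Lin28a narrowed. It was 1.39-fold lower in iEZR_CA ESCs (log2 fold change -0.47, SE 0.12, adjusted p = 9.03e-04), 2.99-fold lower at T24 (-1.58, SE 0.085, adjusted p = 5.90e-26) and 3.56-fold lower at T48 (-1.83, SE 0.048, adjusted p = 2.20e-43). With spike-in library sizes the ESC difference was -0.41 and its call was lost (adjusted p = 0.0762). From ESC to T24, Lin28b rose 3.42-fold in WT and 1.58-fold in iEZR_CA cells. From T24 to T48, it rose 6.63-fold in WT and 5.58-fold in iEZR_CA cells.

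Per length, Lin28a was the higher of the 2 paralogs in every library. In reads per kilobase of exon, scaled by library size (RPKM), Lin28a had a level of 19.2 ± 0.489 (SD, n = 3) in WT ESCs and 282 ± 9.22 at T48, and Lin28b a level of 0.504 ± 0.0181 and 11.3 ± 0.408. In iEZR_CA cells Lin28a had 3.10 ± 0.240 RPKM in ESCs and 170 ± 2.35 at T48, and Lin28b 0.365 ± 0.0240 and 3.19 ± 0.0293. The ratio of Lin28a to Lin28b per length was 38.1 ± 2.30 (SD, n = 3) in WT ESCs, 84.7 ± 2.49 at T24 and 25.0 ± 1.33 at T48. In iEZR_CA cells it was 8.51 ± 0.783, 55.2 ± 8.08 and 53.2 ± 0.964. At T48 the ratio was higher in iEZR_CA than in WT cells, and at the 2 earlier stages it was lower, with no overlap between the libraries at any stage.

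Hmga1 (ENSMUSG00000046711, chr17:27556497-27563674, plus strand) and Hmga2 (ENSMUSG00000056758, chr10:120361275-120476469, minus strand) encode architectural chromatin proteins that bind AT-rich DNA, and moved in opposite directions in ESCs. The normalized counts of Hmga1 were 1462, 1376 and 1378 in WT ESCs and 766, 743 and 735 in iEZR_CA ESCs, 1925, 1838 and 1657 against 1296, 1212 and 1288 at T24, and 1979, 1992 and 1931 against 1633, 1571 and 1568 at T48. Hmga1 was 1.88-fold lower in iEZR_CA ESCs (log2 fold change -0.91, SE 0.047, adjusted p = 6.64e-27), 1.44-fold lower at T24 (-0.53, SE 0.042) and 1.23-fold lower at T48 (-0.30, SE 0.041, adjusted p = 2.01e-09). The T48 call was lost with spike-in library sizes (adjusted p = 0.112). Near-identical copies of Hmga1 exist in the mouse genome and reads that align to several places were not counted, so its level is uncertain.

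Hmga2, the classical let-7 target, was the exception in ESCs and at T24. Its normalized counts were 280, 288 and 265 in WT ESCs and 543, 600 and 554 in iEZR_CA ESCs. They were 386, 360 and 386 in WT and 751, 726 and 726 in iEZR_CA at T24. They were 598, 667 and 562 in WT and 395, 419 and 433 in iEZR_CA at T48. The lines did not overlap at any stage, and the side changed: Hmga2 was 2.04-fold higher in iEZR_CA ESCs (log2 fold change 1.03, SE 0.068, adjusted p = 1.79e-21), 1.94-fold higher at T24 (0.96, SE 0.062, adjusted p = 4.36e-22) and 1.44-fold lower at T48 (-0.53, SE 0.062, adjusted p = 2.52e-11). Hmga2 rose 1.35-fold and then 1.58-fold in WT cells, and in iEZR_CA cells rose 1.29-fold to T24 and then fell 1.77-fold to T48. The level in iEZR_CA ESCs overlapped that of WT cells at T48.

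**Figure D2:**
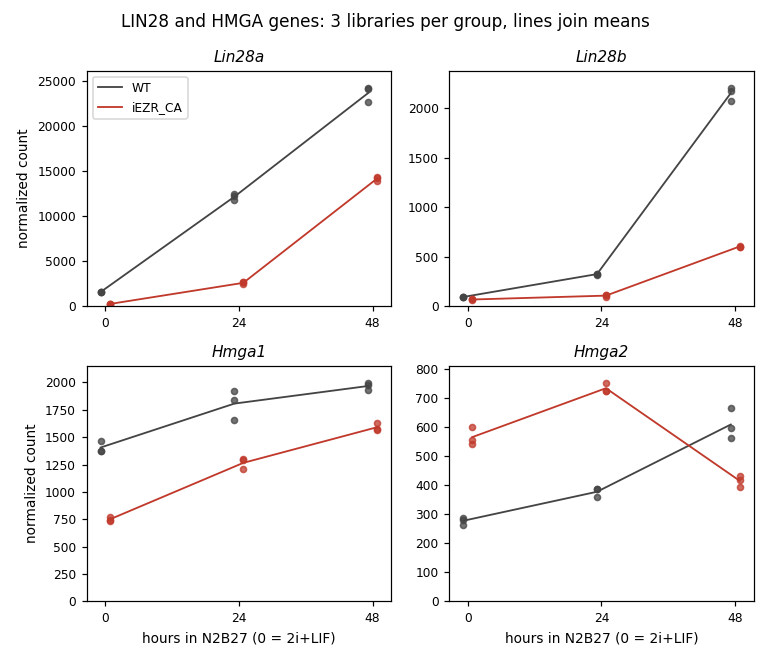
Normalized counts (vertical axes, starting at 0) of Lin28a, Lin28b, Hmga1 and Hmga2 by hours in N2B27 (horizontal axes); points are single libraries, 3 in each group, and lines join group means of WT (grey) and iEZR_CA (red). Lin28a and Lin28b of iEZR_CA cells lay under WT cells at each time, and Hmga2 lay above WT at 0 h and 24 h and below at 48 h.

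The IGF2BP proteins bind mRNA and protect or localise it, and the 3 genes behaved differently from each other. Igf2bp1 (ENSMUSG00000013415, chr11:95957163-96005940, minus strand) was the highest of the 3 per length, between 63.6 and 81.1 RPKM in the group means, and varied by only 1.27-fold over the 6 groups. Its normalized counts lay between 14322 and 14428 in WT and between 13831 and 14117 in iEZR_CA ESCs, a difference that did not pass the test (log2 fold change -0.05, SE 0.026, adjusted p = 0.103) but was called with upper quartile factors (-0.07, adjusted p = 0.0230). At T24 they lay between 15791 and 16758 in WT and between 12403 and 13246 in iEZR_CA, 1.26-fold lower (-0.33, SE 0.026, adjusted p = 4.32e-18; adjusted p = 0.0895 with spike-in library sizes). At T48 the lines overlapped, with 15544 to 16580 in WT and 15997 to 16749 in iEZR_CA (0.03, adjusted p = 0.417). Igf2bp1 rose in WT cells from ESC to T24 (log2 fold change 0.16, SE 0.026) and in iEZR_CA cells fell by 0.12 over that interval (SE 0.026, adjusted p = 5.53e-05) and rose from T24 to T48 (0.35, SE 0.026). The fall was turned to 0.03 with spike-in library sizes (adjusted p = 0.883).

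Igf2bp3 (ENSMUSG00000029814, chr6:49085223-49214957, minus strand) was lower in iEZR_CA cells at all 3 stages. Its normalized counts were 3457, 3434 and 3170 in WT and 2490, 2418 and 2379 in iEZR_CA ESCs, 2664, 2529 and 2491 against 1783, 1629 and 1643 at T24, and 2767, 2820 and 2672 against 1974, 1960 and 1886 at T48. The lines did not overlap, and no 2 of the 6 groups overlapped among neighbours in the order of the means. Its line differences on the log2 scale were -0.47 (SE 0.035, adjusted p = 5.63e-19), -0.61 (SE 0.037, adjusted p = 1.82e-23) and -0.49 (SE 0.036, adjusted p = 1.89e-19) in ESCs, at T24 and at T48. From ESC to T24, Igf2bp3 fell by 0.39 on the log2 scale in WT cells and by 0.54 in iEZR_CA cells. The WT fall was not called with spike-in library sizes (-0.27, adjusted p = 0.0711).

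Igf2bp2 (ENSMUSG00000033581, chr16:22059009-22163299, minus strand) changed least. Its group means lay between 2138 and 2498 normalized counts, and every pair of neighbours in their order overlapped. In ESCs it was 1.12-fold lower in iEZR_CA cells (log2 fold change -0.17, SE 0.041, adjusted p = 5.31e-04), which was not called with spike-in library sizes (adjusted p = 0.581). The differences at T24 (0.02, SE 0.041, adjusted p = 0.732) and at T48 (0.01, SE 0.040, adjusted p = 0.925) did not pass the test. In WT cells the group mean was 2386 in ESCs and 2255 at T24 (log2 fold change -0.09, SE 0.040, adjusted p = 0.0595). This difference missed the threshold and was past it when a library was left out: -0.16 without WT T24 replicate 1 (adjusted p = 7.63e-04), and between -0.11 and -0.09 (adjusted p of 0.0355 to 0.0499) without WT ESC replicate 3, WT T48 replicate 1 or 3, iEZR_CA ESC replicate 1 or 2, iEZR_CA T24 replicate 2 or iEZR_CA T48 replicate 1. With spike-in library sizes it was 0.04.

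Trim71 (ENSMUSG00000079259, chr9:114507133-114564369, minus strand) encodes an RNA-binding ubiquitin ligase of stem cells and embryos that is itself a let-7 target. Its normalized counts were 6505, 6878 and 6767 in WT and 4758, 4661 and 4936 in iEZR_CA ESCs. At T24 they were 9335, 9149 and 9606 in WT and 5702, 5620 and 5348 in iEZR_CA. At T48 they were 7144, 7399 and 7819 in WT and 8120, 7152 and 7417 in iEZR_CA. The lines were apart in ESCs and at T24 and overlapped at T48. Trim71 was 1.41-fold lower in iEZR_CA ESCs (log2 fold change -0.50, SE 0.042, adjusted p = 9.94e-10) and 1.68-fold lower at T24 (-0.75, SE 0.041, adjusted p = 4.05e-13), with a difference of 0.03 at T48 (SE 0.041, adjusted p = 0.596). WT cells had their highest level at T24, rising by 0.47 and then falling by 0.33 on the log2 scale (the fall had an adjusted p of 2.80e-07, and of 0.166 with spike-in library sizes). iEZR_CA cells rose by 0.21 and then by 0.45 and had their highest level at T48.

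Dicer1 (ENSMUSG00000041415, chr12:104687742-104751952, minus strand), the ribonuclease that releases mature microRNAs, rose in both lines. Its normalized counts were 2529, 2523 and 2558 in WT and 2322, 2256 and 2482 in iEZR_CA ESCs, 3768, 3726 and 3925 against 3573, 3752 and 3441 at T24, and 3603, 4180 and 4095 against 4966, 4709 and 4877 at T48. At T48 the lines were apart and Dicer1 was 1.24-fold higher in iEZR_CA cells (log2 fold change 0.31, SE 0.041, adjusted p = 1.94e-07). The T24 libraries overlapped (-0.08, SE 0.042, adjusted p = 0.10), and a call was gained with upper quartile factors (-0.11, adjusted p = 0.0343), with only the groups compared (-0.08, adjusted p = 0.0215), and without WT T48 replicate 1 (-0.08, adjusted p = 0.0340) or iEZR_CA T24 replicate 2 (-0.11, adjusted p = 0.0261). The ESC difference of -0.12 (SE 0.044, adjusted p = 0.0234) was small: its call was lost without any 1 of WT ESC replicates 1, 2 and 3 or iEZR_CA ESC replicates 1 and 2 (adjusted p of 0.0533, 0.0529, 0.119, 0.0837 and 0.130), and with spike-in library sizes (0.797). The transcript rose in both lines from ESC to T24, by 0.57 in WT and 0.61 in iEZR_CA cells. From T24 to T48 the iEZR_CA rise of 0.43 passed the test and the WT difference of 0.05 did not (adjusted p = 0.311). The WT difference was called with upper quartile factors (0.11, adjusted p = 0.0328) and without WT T48 replicate 1 (0.12, adjusted p = 0.00209).

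Zcchc11 (ENSMUSG00000034610, chr4:108459426-108559421, plus strand), which encodes TUT4, rose steadily in both lines and was lower in iEZR_CA cells throughout. Its normalized counts lay between 2006 and 2216 in WT and between 1690 and 1786 in iEZR_CA ESCs, between 2651 and 2686 against 2088 and 2199 at T24, and between 3033 and 3197 against 2614 and 2697 at T48. Its log2 fold changes in the 3 line comparisons were -0.31 (SE 0.036, adjusted p = 2.37e-11), -0.33 (SE 0.035, adjusted p = 6.18e-13) and -0.21 (SE 0.034, adjusted p = 1.45e-07). All 3 calls were lost with spike-in library sizes, where the log2 fold changes were -0.25, -0.25 and -0.16 (adjusted p of 0.128, 0.105 and 0.338).

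**Figure D3:**
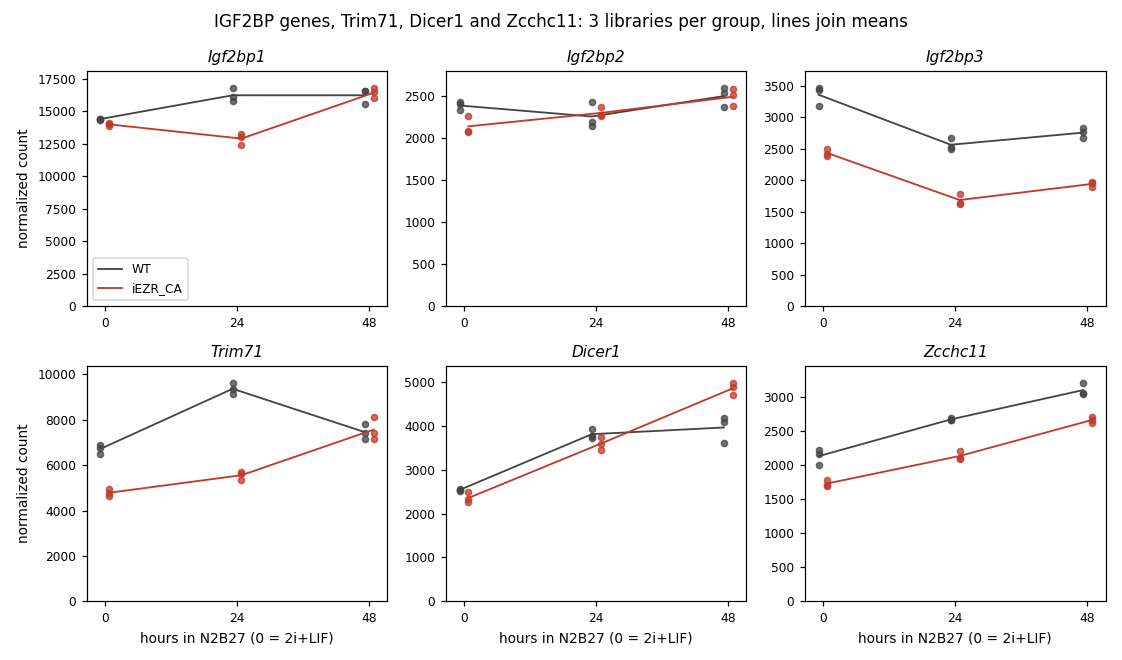
Normalized counts (vertical axes, starting at 0) of Igf2bp1, Igf2bp2, Igf2bp3, Trim71, Dicer1 and Zcchc11 by hours in N2B27 (horizontal axes); points are single libraries, 3 in each group, and lines join group means of WT (grey) and iEZR_CA (red). Igf2bp3 and Zcchc11 of iEZR_CA cells lay below WT at each time, the lines of Trim71 met at 48 h, and those of Igf2bp2 overlapped at 24 h and 48 h.

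Within WT cells, 8 of the 10 rose and 1 fell from ESC to T24, while 31.8% of all genes tested rose and 33.6% fell, and 7 rose and 1 fell from T24 to T48, with 32.8% and 32.9% over all genes. Within iEZR_CA cells, 8 rose and 2 fell from ESC to T24, with 27.1% and 28.9% over all genes, and 9 rose and 1 fell from T24 to T48, with 29.6% and 30.0%. The median log2 fold changes of the 10 were 0.40 and 0.12 in WT and 0.33 and 0.34 in iEZR_CA cells. These comparisons share the T24 libraries, and those of the lines share all libraries with them. The rise of Lin28a and Lin28b was over 2-fold in WT cells from ESC to T24 and in iEZR_CA cells from T24 to T48. From T24 to T48 in WT cells, 3 of the rises were of 1.10-fold or less (Hmga1, Igf2bp2 and Igf2bp3), and with spike-in library sizes 4 of the 10 were called, all of them rises. The same scaling called 8823 of all 18469 genes in that comparison, 5455 as rises and 3368 as falls. With spike-in library sizes the median log2 fold change of all genes was 0.10 to 0.14 in the 4 time comparisons, compared with -0.0085 to 0.0069 with the main scaling. The share of calls that were rises went from 48.6% to 61.6% (WT, ESC to T24), 49.9% to 61.8% (WT, T24 to T48), 48.4% to 68.9% (iEZR_CA, ESC to T24) and 49.6% to 59.4% (iEZR_CA, T24 to T48). The rise of Hmga1 was lost without WT T24 replicate 3 (adjusted p = 0.272) or WT T48 replicate 2 (0.0566), that of Igf2bp2 without WT T24 replicate 2 (0.0593), and that of Igf2bp3 without WT T24 replicate 2 (0.0938), WT T24 replicate 3 (0.103) or WT T48 replicate 2 (0.0842). The smaller Igf2bp2 rises in iEZR_CA cells, of 0.10 to T24 and 0.12 to T48, were lost with spike-in library sizes (adjusted p of 0.117 and 0.164); the first was lost without iEZR_CA ESC replicate 2 or 3 or iEZR_CA T24 replicate 1 or 2 (0.190, 0.136, 0.136 and 0.0603), and the second without iEZR_CA T48 replicate 1 (0.0827).

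Whether the lines changed by different amounts was tested directly, as the interaction of line and time. Over the interval from ESC to T24, the change was more positive in iEZR_CA than in WT cells for 3 of the 10 and more negative for 4, while 21.5% and 16.9% of all genes tested did so. Lin28b had the largest of these differences (log2 -1.11, SE 0.16, adjusted p = 1.66e-08), and with spike-in library sizes it was the only one of the 7 called. That scaling called 2416 of all 18469 genes in place of 7081. The share of more positive calls among all genes then went from 56.0% to 68.5%. Over the interval from ESC to T48 it was more positive for 5 and more negative for 2, with 25.7% and 20.0% over all genes. Lin28a gained 3.74-fold more in iEZR_CA than in WT cells over these 48 h (log2 1.90, SE 0.056, adjusted p = 1.99e-38). Lin28b gained 2.57-fold less (-1.36, SE 0.14, adjusted p = 4.81e-13). The change of Hmga2 was 2.94-fold lower in iEZR_CA than in WT cells (-1.55, SE 0.092, adjusted p = 1.73e-23). Its mean rose from 278 to 609 in WT and fell from 566 to 415 in iEZR_CA cells. The gains of the 2 LIN28 paralogs thus differed from those in WT cells in opposite directions, though both transcripts were lower in iEZR_CA cells throughout. Over this interval, calls were gained for Zcchc11 without WT ESC replicate 3 (0.14, adjusted p = 0.0148) or iEZR_CA ESC replicate 3 (0.12, adjusted p = 0.0484), and for Igf2bp1 without iEZR_CA T48 replicate 3 (0.09, adjusted p = 0.0439).

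**Figure D4:**
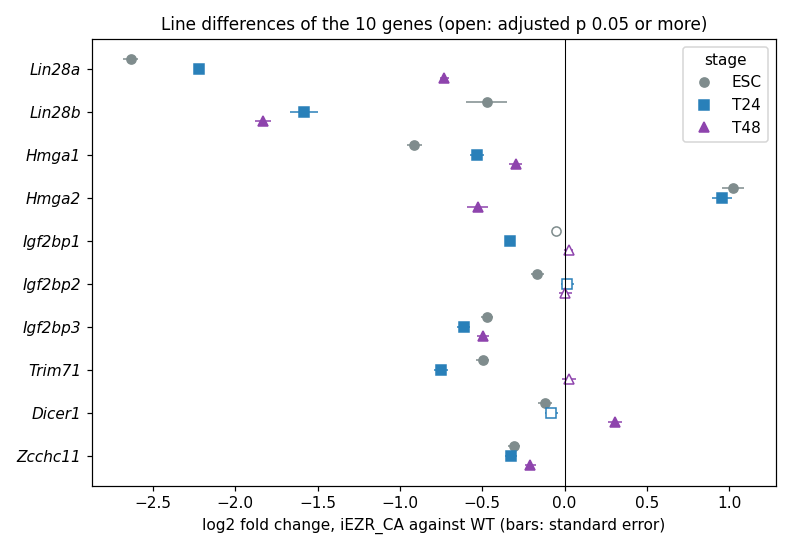
Difference between the lines as log2 fold change, iEZR_CA over WT (horizontal axis; bars are standard errors) for the 10 genes in ESCs (circles), at T24 (squares) and at T48 (triangles); filled symbols had an adjusted p under 0.05. Lin28a moved from -2.64 to -0.73 and Lin28b from -0.47 to -1.83, and Hmga2 crossed from 1.03 to -0.53.

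The other genes of the pathway were taken as lists. Their counts stand beside the shares of all genes tested that were called in the same comparisons: 26.4% higher and 28.1% lower in ESCs, 30.8% and 30.1% at T24, and 31.0% and 30.1% at T48. The list of microRNA biogenesis and turnover held 15 genes, of which the iEZR_CA line had 7 higher and 5 lower in ESCs, 3 and 5 at T24, and 4 and 6 at T48, with medians of -0.01, -0.03 and -0.03 on the log2 scale, close to those of all genes. Tut7, which shares the uridylyltransferase role of Zcchc11, was higher in iEZR_CA cells at all 3 stages (log2 fold changes 0.21, 0.26 and 0.26), whereas Zcchc11 was lower. Dis3l2, the exonuclease of uridylated pre-let-7, was lower in iEZR_CA cells at both earlier stages (-0.35 in ESCs, -0.59 at T24) and was not called at T48 (0.01, adjusted p = 0.850). Tnrc6c, a GW182 protein of the silencing complex, was lower at all 3 stages (-0.84, -0.66 and -0.64). The related Tnrc6a and Tnrc6b went the other way in ESCs. Their normalized counts there were 2825 to 2919 (WT 2332 to 2604) and 1335 to 1571 (WT 1071 to 1175). Both overlapped at T24, and at T48 Tnrc6a overlapped and Tnrc6b was lower (2155 to 2292, WT 2444 to 2714). Ago2, the Argonaute that cleaves its targets, was higher in ESCs (0.47) and at T24 (0.53) and not called at T48 (-0.03, adjusted p = 0.717). Prkra, a partner of DICER1, was lower at T48 (-1.06, SE 0.083). With spike-in library sizes 5, 6 and 4 of the 15 were called, while 5506, 7129 and 7229 of all 18469 genes were.

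Of 16 let-7 targets outside the 10 genes, the iEZR_CA line had 4 higher and 8 lower in ESCs, 4 and 9 at T24, and 3 and 10 at T48, with medians of -0.10, -0.21 and -0.33, compared with -0.01, 0.00 and 0.00 over all genes. Of all genes tested, 26.4% to 31.0% were higher and 28.1% to 30.1% lower in these comparisons. A seed match was found in the 3′ UTR of 11 of the 16. Nr6a1, an orphan nuclear receptor with 8 matches in its 3′ UTR, had mean normalized counts of 1863 in WT and 738 in iEZR_CA ESCs (log2 fold change -1.34, SE 0.042, adjusted p = 1.08e-38), and 6591 and 3249 at T48 (-1.01, SE 0.032). At T24 its libraries had 2655, 2590 and 2599 in WT and 836, 886 and 812 in iEZR_CA cells. Myc, the growth transcription factor, was lower in ESCs (-1.14, SE 0.13) and at T24 (-1.67, SE 0.054), and its 466-base 3′ UTR held no match. At T48 Myc had normalized counts of 1190, 1346 and 1328 in WT and 774, 831 and 758 in iEZR_CA cells. Ccnd2, cyclin D2, was lower at T24 (653 in WT, 50.3 in iEZR_CA, -3.68, SE 0.11) and at T48 (-3.14, SE 0.13), also without a match. Irs2, an adaptor of insulin signalling with 1 match, was first higher (0.86 in ESCs, 1.26 at T24) and then lower at T48 (-0.85), the same order of signs as Hmga2. With spike-in library sizes 7, 8 and 9 of the 16 were called, beside 5506, 7129 and 7229 of all 18469 genes.

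Among 9 clients and partners of the IGF2BP proteins, the iEZR_CA line had 3 higher and 2 lower in ESCs, 1 and 6 at T24, and 2 and 4 at T48, with medians of 0.06, -0.24 and -0.14. Of all genes tested, 26.4%, 30.8% and 31.0% were higher and 28.1%, 30.1% and 30.1% lower. H19, an imprinted long noncoding RNA bound by IGF2BP proteins, had mean normalized counts of 443 ± 25.6 (SD, n = 3) in WT and 1899 ± 150 in iEZR_CA cells at T48 (log2 fold change 2.12, SE 0.060, adjusted p = 4.51e-40). At T24 it was lower in iEZR_CA cells (60.0 and 43.1, -0.56, adjusted p = 0.00398), and in ESCs it was not called (adjusted p = 0.0875). Igf2, whose mRNA gave the family its name, was at 0 in every ESC library and was low at T48, with means of 15.2 in WT and 6.17 in iEZR_CA cells (-1.26, SE 0.41, adjusted p = 0.00594). Cd44, a hyaluronan receptor, was low but higher in iEZR_CA cells in ESCs (4.46 in WT, 16.4 in iEZR_CA, log2 fold change 1.78, SE 0.38) and at T24 (3.13 and 8.04, 1.32, SE 0.50), and was lower at T48 (102 and 9.52, -3.39, SE 0.22). Hnrnpu and Dhx9, RNA-binding partners of IGF2BP1, were lower in ESCs (-0.19 and -0.09). In normalized counts, Hnrnpu was also lower in iEZR_CA cells at T24 (31019 to 31849, WT 38487 to 38913) and T48 (37569 to 38735, WT 45923 to 47098). Dhx9 was lower in iEZR_CA cells at T24 (16004 to 16615, WT 19512 to 20872) and higher at T48 (17548 to 18285, WT 15927 to 16977). Actb was higher in iEZR_CA ESCs (87345 to 89204, WT 71134 to 74268) and lower at T24 (87814 to 90370, WT 103527 to 105509). Elavl1 was also higher in iEZR_CA ESCs (3884 to 4040, WT 3500 to 3751) and lower at T24 (3700 to 3775, WT 4242 to 4341). Syncrip overlapped in ESCs and was lower in iEZR_CA cells at T24 (5009 to 5237, WT 6397 to 6494).

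The libraries do not report mature let-7, because polyA RNA was sequenced. Of 16 let-7 genes and host transcripts matched, 14 had at most 2 reads in any library and were not tested. Of the hosts, Wdr82, which overlaps the let-7g hairpin, was higher in iEZR_CA cells at all 3 stages (log2 fold changes 0.38, 0.12 and 0.28). Huwe1, which holds let-7f-2 and miR-98, was higher in ESCs (0.29, adjusted p = 0.0220) and not called at T24 (-0.18) or T48 (-0.06). A host's mRNA says nothing of the processing of its hairpin.

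Markers of other cell types were read beside these results. The summed normalized count of 4 early post-implantation markers (Otx2, Fgf5, Pou3f1 and Dnmt3b) was 3405 to 3509 in WT and 3845 to 4082 in iEZR_CA ESCs, 40194 to 42503 and 14861 to 15815 at T24, and 73188 to 79028 and 36758 to 38833 at T48. In every group most of this sum was Dnmt3b. All 4 markers were lower in iEZR_CA cells at T24. At T48 Dnmt3b and Pou3f1 were lower, Fgf5 overlapped and Otx2 was higher (3434 to 3530, WT 2001 to 2226). In ESCs Dnmt3b was higher in iEZR_CA cells (3550 to 3779, WT 3090 to 3183) and Pou3f1 lower (17.7 to 33.6, WT 56.2 to 85.4). The part of these markers in the differences of Lin28a and Lin28b was not tested. The sum of 4 fibroblast markers was 348 to 394 in WT cells at T48 and 34.1 to 65.4 in the libraries of the other 5 groups, with Postn at 0 in 5 of the 6 groups. This sum moved with the T48 differences, Cd44 among them, and its part in them was not tested. The sum of 3 neural markers was 2479 to 2661 in WT and 1061 to 1167 in iEZR_CA ESCs, 1275 to 1354 and 1603 to 1621 at T24, and 2023 to 2046 and 906 to 933 at T48. In WT ESCs most of it was Tubb3 (2283, 2471 and 2413). At T24 Tubb3 was higher in iEZR_CA cells (665, 649 and 656 in WT, 1237, 1219 and 1171 in iEZR_CA). Sox1 went the other way (450, 439 and 374 in WT, 163, 172 and 191 in iEZR_CA), and Pax6 overlapped. The sum of 3 mesendoderm markers was 525 to 566 in WT and 651 to 709 in iEZR_CA ESCs, 132 to 145 and 162 to 190 at T24, and 122 to 132 and 236 to 273 at T48. In ESCs most of it was Gsc (335 to 381 in WT, 526 to 573 in iEZR_CA). Eomes went the other way in ESCs (157 to 158 in WT, 99.7 to 113 in iEZR_CA), overlapped at T24 and was higher in iEZR_CA cells at T48 (104 to 109 in WT, 218 to 254 in iEZR_CA). The sum of 5 primitive endoderm markers was 195 to 202 and 129 to 154 in ESCs, 99.9 to 128 and 95.7 to 102 at T24, and 111 to 133 and 69.5 to 101 at T48. In ESCs Gata4 was lower in iEZR_CA cells (91.0 to 101 in WT, 15.1 to 18.8 in iEZR_CA) and Gata6 was higher (29.8 to 35.8 in WT, 55.2 to 67.5 in iEZR_CA), while Sox17, Pdgfra and Foxa2 overlapped. Except for primitive endoderm at T24 and the fibroblast markers in ESCs and at T24, these sums did not overlap between the lines. Their part in the line differences of the 10 genes was not tested.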

How the data were processed

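RNA was measured in 18 libraries of mouse ES cells, grouped by the cell line, medium and exit time in the sample labels. The authors sequenced polyA RNA in paired-end reads, trimmed the reads with Trim Galore 0.6.5, aligned them to GRCm38 (mm10) with GSNAP and deposited counts of reads per gene made with HTSeq on Ensembl release 81, neither normalized nor pooled. Use of the strand in counting is not given in the sources used here. The table also held 92 ERCC spike-in sequences (0.575% to 0.884% of a library) and 5 classes of reads outside genes (21.3% to 24.3%), which were left out of library sizes and tests. Symbols and coordinates came from GENCODE M21 (53706 identifiers matched, 95 did not).

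Genes were filtered with filterByExpr by group and tested with edgeR 4.0.16 in R 4.3.3: TMM factors (0.975 to 1.03), a mean for every one of 6 groups, leaving 12 residual degrees of freedom, its quasi-likelihood test in robust form and p-values adjusted by Benjamini-Hochberg over 18469 genes, with a threshold of 0.05. Every adjusted p-value in the text comes from this test unless an alternative is named. The common coefficient of variation between replicates was 2.98%. Normalized counts used DESeq2 1.42.0 size factors, and RPKM used the union of a gene's exons. The 9 comparisons were the 3 of the lines, 4 of consecutive times within a line and 2 interactions. The fit was first tested on simulated data. Figures were drawn with matplotlib 3.10.9.

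The members and lists were chosen with earlier results of these data known. All 10 members are named in each comparison of the lines. Of the lists (microRNA biogenesis and turnover, let-7 targets, let-7 genes and hosts, IGF2BP clients and partners), at most the 2 largest rises and 2 largest falls among called genes whose normalized count averaged at least 50 over the libraries compared were picked, and Igf2, H19 and Tut7 in any case. A gene picked in 1 comparison could be given in the others as well, as Cd44 was in ESCs and at T24, where its count averaged under 50. Some further list genes are given as normalized counts only. Marker lists were naive, early post-implantation, primitive endoderm, mesendoderm, neural and fibroblast genes. The host transcript Mir100hg was not used here. Alternatives were the DESeq2 Wald test, RLE, upper quartile and spike-in scaling, no filter on low counts, at least 10 counts in every library, a fit of only the groups compared, and leaving out each library in turn. Replicates were numbered in accession order, and the labels pair none. Every one of the 18 pairs of replicates differed by more than counting noise (chi-square per degree of freedom of 1.61 to 3.59).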

Additional observations from a re-analysis of the deposited data

Results flagged for a closer look

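The 2 lines changed by different amounts during exit in 14 cases, each found by testing the interaction of line and time with edgeR's quasi-likelihood test (Benjamini-Hochberg adjusted p under 0.05). All values are log2 differences, the change in iEZR_CA minus the change in WT cells. No library was singled out, because groups of 3 are too small for that.

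From ESC to T24, the difference was 0.4141 for Lin28a, 0.3827 for Hmga1 and 0.1837 for Igf2bp2. It was -1.1097 for Lin28b, -0.2803 for Igf2bp1, -0.2526 for Trim71 and -0.143 for Igf2bp3. Lin28b rose in both lines and less in iEZR_CA cells, and Igf2bp1 rose in WT and fell in iEZR_CA cells. With spike-in library sizes the adjusted p was 0.123 for Lin28a, 0.132 for Hmga1, 0.412 for Igf2bp1, 0.575 for Igf2bp2, 0.797 for Igf2bp3 and 0.479 for Trim71. The Igf2bp3 difference was also lost with no filter (adjusted p = 0.219) and without WT ESC replicate 3 (0.103), WT T24 replicate 1 (0.143), iEZR_CA ESC replicate 1 (0.0609) or iEZR_CA T24 replicate 2 or 3 (0.103 and 0.065).

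From ESC to T48, the difference was 1.9043 for Lin28a, 0.6148 for Hmga1, 0.5259 for Trim71, 0.4259 for Dicer1 and 0.1713 for Igf2bp2. It was -1.3588 for Lin28b and -1.5536 for Hmga2. With spike-in library sizes the adjusted p was 0.0895 for Dicer1 and 0.621 for Igf2bp2. The Igf2bp2 difference was also lost with the DESeq2 Wald test (adjusted p = 0.0565) and without WT T48 replicate 3 (0.0789), iEZR_CA ESC replicate 2 (0.0629) or iEZR_CA T48 replicate 1 (0.0577).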

How the results depend on the processing

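The 10 genes gave 90 values in the 9 comparisons, 75 of them called. Under 7 alternatives and 18 fits without a library each, 53 of the 90 kept their direction and side of the threshold throughout and 37 did not under at least 1. Spike-in scaling changed the most. It called 5 of the 10 genes between the lines in ESCs, 4 in WT cells from T24 to T48 and 1 in the interaction from ESC to T24. Of the lists it called 5 biogenesis genes in ESCs and 4 at T48, and 7 let-7 targets in ESCs and 8 at T24. Over all genes, it called 5506 in place of 10058 between the lines in ESCs, 7129 in place of 11253 at T24 and 7229 in place of 11282 at T48. Within WT cells it called 8632 in place of 12082 and 8823 in place of 12137. Within iEZR_CA cells it called 6593 in place of 10340 and 6931 in place of 11015. In the interactions it called 2416 in place of 7081 and 3881 in place of 8452. The spike-in share of the reads differed between replicates of a group, as in iEZR_CA cells at T48 (0.8741%, 0.5748% and 0.6425%). The cause of the changed counts was not tested.

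Signs turned in values near 0, of which only 1, Igf2bp1 in iEZR_CA cells from ESC to T24 (0.0308 with spike-in scaling), had been called. Spike-in scaling gave 0.0076 for Igf2bp1 between the lines in ESCs, 0.0429 for Igf2bp2 in WT from ESC to T24, 0.1215 for Igf2bp1 in WT from T24 to T48 and 2e-04 for Zcchc11 in the interaction to T24. Between the lines at T48, Igf2bp2 was -0.0018 with DESeq2, -0.0017 with RLE, -0.0277 with upper quartile factors and -0.0095 with at least 10 counts. Igf2bp1 in WT from T24 to T48 was 1e-04 with RLE, 0.0546 with upper quartile factors and 0.0248 with at least 10 counts. Upper quartile factors also gave -0.0108 for Igf2bp2 at T24, -0.0084 for Igf2bp1 at T48 and -0.0061 for Trim71 at T48. No filter gave 0.0069 for Zcchc11 in the interaction to T24 and 0.0202 for Igf2bp3 in that to T48. Leaving out a library in turn turned signs within -0.0226 to 0.0898 (Igf2bp2, lines at T24), -0.0428 to 0.0359 (Igf2bp2, T48), -0.0131 to 0.0449 (Igf2bp1, T48), -0.0357 to 0.0602 (Trim71, T48), -0.0268 to 0.0316 (Igf2bp1, WT, T24 to T48), -0.0451 to 0.0289 (Zcchc11, interaction to T24) and -0.0519 to 0.009 (Igf2bp3, interaction to T48).

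With DESeq2, the WT rises of Hmga1 and Igf2bp3 from T24 to T48 and the iEZR_CA rise of Igf2bp2 to T24 were not called (adjusted p of 0.054, 0.0521 and 0.0883), and the first 2 were not called with no filter either (0.19 and 0.243). No paired analysis was possible because the labels give no replicate numbers. Mature let-7 was not measured, protein levels were not used here, and spike-in scaling rests on under 1% of the reads.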

Other observations

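The genes whose pattern over the 18 libraries was most like that of a member were named from 12801 genes whose normalized count averaged at least 50, by Pearson's r of log2(normalized count + 1). The points share line, time and library, so r is a description. Lin28a ran most closely with Sulf1 (r = 0.997), a sulfatase of heparan sulfate, Hmgcll1 (0.993) and Ncoa7 (0.99). Lin28b ran with Mif (0.997), a secreted cytokine whose pseudogenes make its count uncertain, Soat1 (0.993), which esterifies cholesterol, and Dtd1 (0.993). Trim71 ran with Srxn1 (0.973), Rrp1b (0.968) and Dzip3 (0.963). Hmga2 ran with Id2 (0.928), an inhibitor of basic helix-loop-helix factors, Pcbd1 (0.922) and the keratin gene Krt8 (0.905). Igf2bp1 ran with Ankrd17 (0.949), the nucleolar Gnl3 (0.94) and the pseudogene Hspd1-ps3 (0.938).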
